A study of Rattus norvegicus with 8 samples.

Results

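The genes described here are interferon-stimulated genes outside the Ifit, Mx, Oas, Gbp, Irf and chemokine families, together with the cytosolic sensors of viral RNA. They were chosen by name: a probe set is a member if the array's annotation gives it a single gene symbol that is on a list of 39 symbols. The list covers 38 genes, since Ddx58 and Rigi name the same gene. The rule found 45 probe sets for 34 genes, of 31099 probe sets on the array. No single-symbol probe set carried Ddx58, Rigi, Samd9l, Trim21 or Xaf1. To be tested a probe set needed a mean level over the 40th percentile (intensities near 26). That left 31 member probe sets of 27 genes in the test and 14 member probe sets below the filter.

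Values came from 8 Affymetrix Rat Genome 230 2.0 arrays, each carrying labelled brain RNA of male Wistar rats that weighed 250 to 300 g. For 4 arrays the injection into the striatum, the input nucleus of the basal ganglia, was of a baculovirus vector made inactive by 1 hour of ultraviolet light (254 nm), at 50000000 particles in a 5 µl volume. For the other 4 it was an equal volume of phosphate-buffered saline (PBS). Both groups thus share a stereotaxic needle injection, and tissue was taken 48 hours later in both. Baculoviruses are insect viruses that enter mammalian cells without replicating there and serve as gene transfer vectors. The design text speaks of 7 rats with PBS given on the contralateral side. No label ties an array to a rat, so some of the 8 arrays may share an animal, and p-values measure only the spread between these samples.

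Cells meet viral RNA with the helicases RIG-I (gene Ddx58 or Rigi) and MDA5 (gene Ifih1), which signal through the adaptor MAVS to switch on type I interferon. Secreted interferon acts through its receptor and a complex of transcription factors that includes IRF9, which binds a promoter element called the interferon-stimulated response element (ISRE). The genes switched on this way include the sensors themselves, the ubiquitin-like modifier ISG15 with its conjugation enzymes, and proteins that block virus entry, replication or release. In the brain, microglia, astrocytes, endothelium and neurons can all respond to interferon.

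The promoters of several members are shown because they hold the core letters of the ISRE. RefSeq windows (GRCr8 build) from 250 bases before to 50 bases after the gene start were matched by symbol for 27 of the 34 genes. Those of Adar, Dhx58, Ifi27l2b, Isg15, Rtp4, Usp18 and Zbp1 were not matched. The core letters GAAANNGAAA were searched on both strands, so that TTTCNNTTTC counts as well. They occurred in 17 of the 27 member windows, or 63%, and in 1312 of all 33469 windows, or 3.92%. Of the 22 matches in members, 20 lay before the gene start, 19 of them within 150 bases of it. Shown 5′ to 3′ on the gene's own strand, with each match in capitals, are the windows of Bst2 (chr16:18254918-18255217, minus strand), which has a pair of overlapping matches, Ddx60 (chr16:33208790-33209089, minus strand), Ifih1 (chr3:67683919-67684218, minus strand), Eif2ak2 (chr6:21940904-21941203, plus strand) and Rsad2 (chr6:48788071-48788370, minus strand). The window of Tor3a (chr13:71348576-71348875, minus strand) is shown because Tor3a had the smallest p among the members, and these letters are not in it.
Bst2: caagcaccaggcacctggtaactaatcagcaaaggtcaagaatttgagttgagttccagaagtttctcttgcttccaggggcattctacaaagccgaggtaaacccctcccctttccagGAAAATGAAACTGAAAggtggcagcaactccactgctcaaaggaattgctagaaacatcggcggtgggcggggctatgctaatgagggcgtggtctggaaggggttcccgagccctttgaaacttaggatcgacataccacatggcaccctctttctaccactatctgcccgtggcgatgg
Ddx60: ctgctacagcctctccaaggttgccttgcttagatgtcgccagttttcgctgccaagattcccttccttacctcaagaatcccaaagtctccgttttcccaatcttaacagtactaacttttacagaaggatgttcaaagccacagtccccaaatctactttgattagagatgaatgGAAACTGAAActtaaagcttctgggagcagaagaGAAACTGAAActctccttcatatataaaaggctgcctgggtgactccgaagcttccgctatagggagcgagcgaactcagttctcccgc
Ifih1: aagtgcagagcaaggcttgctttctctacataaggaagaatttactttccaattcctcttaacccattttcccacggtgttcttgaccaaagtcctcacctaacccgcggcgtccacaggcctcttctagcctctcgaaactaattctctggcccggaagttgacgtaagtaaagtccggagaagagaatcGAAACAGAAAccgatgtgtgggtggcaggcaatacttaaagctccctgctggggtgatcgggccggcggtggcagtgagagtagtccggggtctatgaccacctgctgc
Eif2ak2: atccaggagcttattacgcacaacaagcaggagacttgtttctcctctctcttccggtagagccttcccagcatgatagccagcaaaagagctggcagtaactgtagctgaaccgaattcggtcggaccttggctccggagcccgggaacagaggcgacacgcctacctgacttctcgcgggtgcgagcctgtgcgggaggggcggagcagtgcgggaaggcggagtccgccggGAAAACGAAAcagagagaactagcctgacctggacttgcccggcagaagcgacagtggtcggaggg
Rsad2: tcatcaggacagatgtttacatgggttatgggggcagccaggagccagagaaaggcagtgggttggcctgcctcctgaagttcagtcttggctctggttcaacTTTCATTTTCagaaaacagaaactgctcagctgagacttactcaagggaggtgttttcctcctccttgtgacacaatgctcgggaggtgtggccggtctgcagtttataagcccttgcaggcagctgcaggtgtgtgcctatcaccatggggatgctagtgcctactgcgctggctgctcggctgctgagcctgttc
Tor3a: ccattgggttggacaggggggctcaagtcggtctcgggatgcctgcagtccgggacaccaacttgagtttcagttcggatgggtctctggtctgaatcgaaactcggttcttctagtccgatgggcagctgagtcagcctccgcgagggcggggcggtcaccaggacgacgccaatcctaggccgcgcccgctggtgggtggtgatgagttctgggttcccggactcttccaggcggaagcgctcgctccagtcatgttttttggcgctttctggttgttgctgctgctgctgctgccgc

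Among these windows the match nearest to the gene start was that of Eif2ak2, 16 bases before it, and that of Rsad2 lay 147 bases before it on the opposite strand. A match is a description of the letters and does not show binding.

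The comparison asks how tissue injected with the inactivated vector differs from tissue injected with PBS. Since the design text gives PBS on the contralateral side, PBS tissue may come from rats that also received the vector. A response that reached both sides of such a brain would not show as a difference between the groups, and this was not tested. Most members had a higher mean after inactivated baculovirus, and none passed the test. The mean was higher for 30 of the 31 tested member probe sets and lower for 1, while it was higher for 53.7% of all 18625 probe sets tested. With each array centred on its median it was higher for 28 members and for 44.1% of all. The median log2 fold change was 0.21 over these members and 0.01 over all probe sets tested. Over all 45 member probe sets, with those below the level filter included, 40 means were higher and 5 lower. With no level filter the mean was higher for 56.1% of all probe sets. Fold changes are on the log2(intensity + 16) scale, as inactivated baculovirus minus PBS, and understate the change of dim probe sets.

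In limma 0 of the 31 passed an adjusted p of 0.05, as did 0 of all probe sets tested (0%), and the members' adjusted p ran from 0.688 to 0.994. At an unadjusted p under 0.05, 2 members were higher, or 6.45%, against 2.51% of all probe sets tested, and 0 were lower, against 4.22%. The methods' t-test gave 0 members after adjustment and 1 at an unadjusted p under 0.05. The groups overlapped for every one of the 45 member probe sets, while 1.55% of all probe sets tested were higher and 2.31% lower without overlap. Only Usp18 reached a 1.5-fold difference of means on this scale, which 0.123% of all probe sets tested reached.

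The members shared a pattern over the arrays. The array of baculovirus replicate 1 had the highest value for 26 of the 31 probe sets, or 83.9%, against 11.6% of all probe sets tested, replicate 2 for 2 (8.57% of all) and replicate 3 for 3 (10.5%). Baculovirus replicate 4 had the lowest value for 19 of them, or 61.3%, against 15.8% of all, and PBS replicates 1 to 4 had it for 4, 2, 5 and 1 (17.6%, 12.5%, 17.8% and 10.2% of all). For the same 19 probe sets replicate 1 was the highest and replicate 4 the lowest of all 8 arrays, a combination found in 2.77% of all probe sets tested. Thus the highest and the lowest values of most members were both in the baculovirus group. The intensity on baculovirus replicate 1 was between 1.07 and 10.4 times that on replicate 4, with a median of 2.23.

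**Figure D1:**
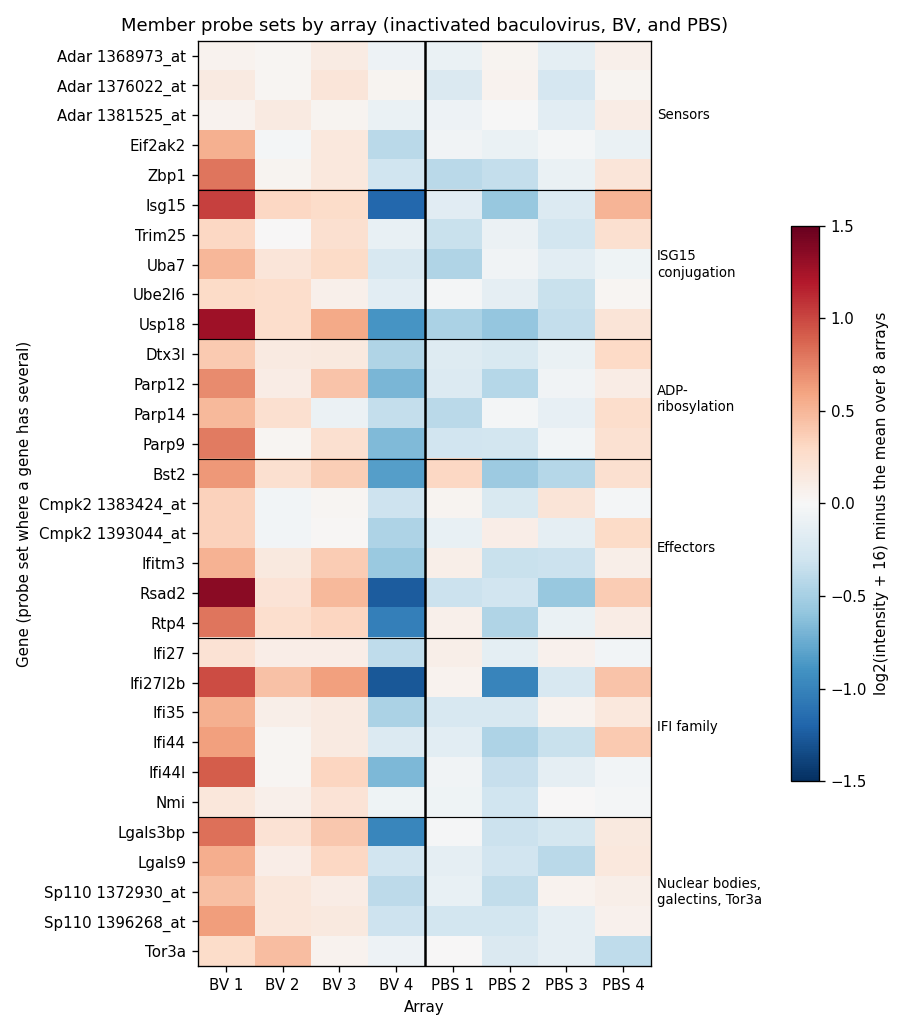
Level of each of the 31 tested member probe sets (rows, by role) on the 8 arrays (columns; BV, inactivated baculovirus), as log2(intensity + 16) minus the mean over the 8 arrays. Baculovirus replicate 1 is the highest array for 26 rows and baculovirus replicate 4 the lowest for 19.

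Set against the PBS arrays, baculovirus replicate 1 was above every PBS array for 29 of the 31 probe sets (18.8% of all probe sets tested), replicate 2 for 14 (17.5%) and replicate 3 for 22 (17.6%). Replicate 4 was above every PBS array for 0 (20.7% of all) and below every PBS array for 19 (21.8%). Summed up as the median over the tested members of the centred log2 level, baculovirus replicates 1, 2, 3 and 4 stood at 0.53, 0.14, 0.18 and -0.40, and PBS replicates 1, 2, 3 and 4 at -0.11, -0.28, -0.14 and 0.12. Baculovirus replicate 4 was thus below all PBS arrays by this measure, and PBS replicate 4 was the highest PBS array.

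The spread between arrays of the same group was wide for these genes. The residual SD within groups had a median of 0.308 on the log2 scale over the members and of 0.146 over all probe sets tested. For 16 of the 31 members, or 51.6%, it was above the 95th percentile of all probe sets tested, which was 0.303. From its centre the 95% interval of a fold change extended by a median of 0.371 (log2) over the members and of 0.231 over all probe sets tested.

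**Figure D2:**
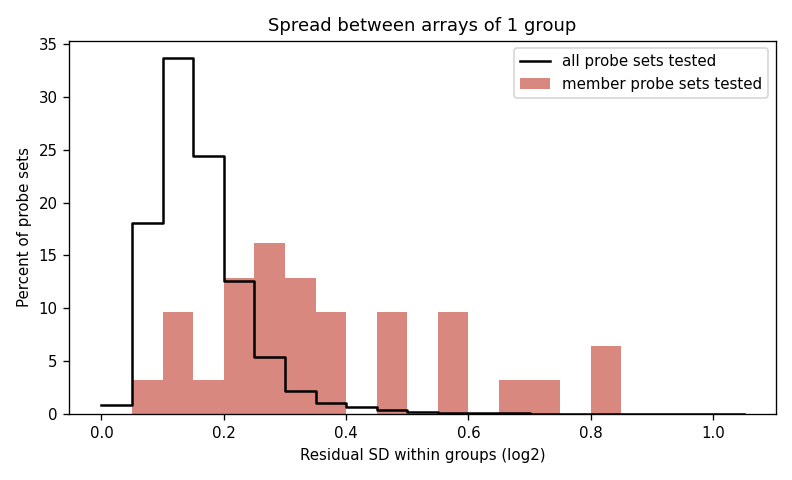
Residual SD within groups on the log2 scale (horizontal axis, with values over 1 in the last bin) against the percent of probe sets (vertical axis), for the 31 tested members (bars) and all 18625 probe sets tested (line). The members' median is 0.308 and that of all probe sets tested 0.146.

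Because 2 baculovirus arrays lay at opposite ends, the members' values depended on which array was left out. With baculovirus replicate 4 left out, the mean was higher for 32 of 32 tested members (52.2% of all probe sets tested), their median log2 fold change was 0.42, 21 were higher at an unadjusted p under 0.05 (3.26% of all probe sets tested) and 14 were higher without overlap (3.52%), but 0 passed and the lowest adjusted p was 0.738 (limma). With baculovirus replicate 1 left out, the mean was higher for 21 of 32 (54.2% of all), with a median of 0.05, 1 member higher at an unadjusted p under 0.05 (2.15%) and 0 passing. With PBS replicate 4 left out, it was higher for 32 of 32 (53.4%), with a median of 0.30, and 9 were higher at an unadjusted p under 0.05 (4.69%). With PBS replicate 1 left out, 1 member was higher and 1 lower without overlap (3.27% and 4.62% of all).

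The sensors of foreign nucleic acid come first. RIG-I itself has no member probe set, because the annotation calls its probe set Rig1. RefSeq lists Ddx58 as a synonym of that gene. This probe set, outside the rule and chosen after its values were seen, measured 102, 67.3, 67.1 and 37.3 on baculovirus replicates 1 to 4, against 60.7, 58.2, 58.5 and 68.9 on the PBS arrays. The first baculovirus array was the highest and the fourth the lowest, and Rig1 had a log2 fold change of 0.07 ± 0.18 (SE, limma adjusted p = 0.96).

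Ifih1, which encodes the long-RNA sensor MDA5, was below the level filter. It measured 18.2, 15.1, 7.43 and 2.81 after inactivated baculovirus, against 8.06, 12.4, 8.66 and 5.25 after PBS. Of the baculovirus values, 18.2 and 15.1 were above every PBS array, 7.43 lay within the PBS range and 2.81 was below it. The groups thus overlapped, and at such intensities the order of arrays is uncertain.

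Dhx58 encodes LGP2, a helicase that tunes RIG-I and MDA5 signalling, and all 3 of its probe sets were below the filter. Their ranges were 4.25 to 19.4, 1.87 to 37.9 and 6.31 to 19.1 after inactivated baculovirus, against 4.35 to 13.3, 4.41 to 17.2 and 12.1 to 17.7 after PBS. For each of the 3 the highest array was baculovirus replicate 1 and the lowest baculovirus replicate 4. The suffix of 2 of them (x_at) marks probes that may also bind other transcripts.

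Ddx60, a helicase linked to RIG-I signalling, was below the filter as well, with 49.2, 28.6, 20.4 and 1.04 after inactivated baculovirus, against 15.6, 8.26, 8.13 and 14.0 after PBS. The first 3 baculovirus arrays were above every PBS array and the fourth below all of them.

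Eif2ak2 encodes PKR, a kinase that halts translation on double-stranded RNA. It measured 78.8, 48.2, 57.2 and 33.5 after inactivated baculovirus, against 47.3, 45.2, 48.2 and 45.2 after PBS. The PBS arrays lay close together, at 46.5 ± 1.53, inside the range of the baculovirus arrays, at 54.4 ± 18.9 (SD, n = 4 each). The log2 fold change of Eif2ak2 was 0.13 ± 0.16 (SE, limma adjusted p = 0.882), against -0.022 without baculovirus replicate 1 and 0.29 without replicate 4.

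Zbp1, a sensor of left-handed nucleic acid that can trigger cell death, measured 69.0, 34.1, 38.3 and 23.6 after inactivated baculovirus, against 20.8, 22.1, 29.8 and 39.2 after PBS. Only baculovirus replicate 1 was above every PBS array. Zbp1 had a log2 fold change of 0.34 ± 0.20 (SE, limma adjusted p = 0.772), and of 0.13 without baculovirus replicate 1.

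Adar edits adenosine in double-stranded RNA and keeps the cell's own RNA from setting off these sensors. Its 3 probe sets all had higher means, by 0.19 ± 0.09, 0.07 ± 0.10 and 0.07 ± 0.10 (log2 fold change ± SE), with limma adjusted p values of 0.737, 0.911 and 0.91. The probe set 1376022_at, the third of all member probe sets by p, measured 389, 360, 402 and 363 after inactivated baculovirus, against 302, 367, 296 and 364 after PBS. Adar thus varied little from array to array: baculovirus replicates 1 and 4 differed by 1.07 to 1.14 times on its 3 probe sets.

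The ISG15 system attaches a ubiquitin-like protein to other proteins. Isg15 encodes the modifier, Uba7 its activating enzyme, Ube2l6 its conjugating enzyme, Herc6 the ligase known from mouse, and Usp18 the protease that removes it and also damps signalling at the interferon receptor. Trim25 is a ubiquitin ligase that acts on RIG-I. Of these 6 genes 5 had a tested probe set, all 5 with a higher mean and 0 passing, and log2 fold changes between 0.21 and 0.61.

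Isg15 measured 283, 167, 162 and 49.0 after inactivated baculovirus, against 115, 83.4, 112 and 194 after PBS. The 2 extremes among the 8 arrays were both baculovirus arrays, and PBS replicate 4 came second. Isg15 had a log2 fold change of 0.21 (95% interval -0.55 to 0.98, limma adjusted p = 0.924). It was -0.09 without baculovirus replicate 1, 0.64 without baculovirus replicate 4, 0.06 without PBS replicate 2 and 0.42 without PBS replicate 4.

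Usp18 had the largest fold change among the tested members. It measured 234, 108, 138 and 39.8 after inactivated baculovirus, against 58.1, 53.4, 64.4 and 103 after PBS, or 130 ± 80.6 against 69.6 ± 22.4 (SD, n = 4 each). Replicates 1 to 3 of the baculovirus group were above every PBS array and replicate 4 below all of them. The log2 fold change of Usp18 was 0.61 (95% interval -0.11 to 1.33, limma adjusted p = 0.756), against 0.29 without baculovirus replicate 1 and 1.01 without baculovirus replicate 4 (limma adjusted p = 0.738 for the last).

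Uba7 had an unadjusted p of 0.0357 on its tested probe set, 1386277_at, with 62.2, 47.0, 51.7 and 30.9 after inactivated baculovirus, against 24.7, 37.8, 33.9 and 37.2 after PBS. The first 3 baculovirus arrays were above every PBS array, and the log2 fold change was 0.36 ± 0.15 (SE, limma adjusted p = 0.721). Both other probe sets of Uba7 were below the filter, at 15.7 ± 8.92 against 4.78 ± 3.82 and at 10.9 ± 4.05 against 12.4 ± 8.29 (SD, n = 4 each), so that they differed in direction.

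Ube2l6 measured 102, 99.7, 85.8 and 70.5 after inactivated baculovirus, against 78.7, 72.1, 60.9 and 82.4 after PBS. Again 3 of 4 baculovirus arrays were above every PBS array, and Ube2l6 had a log2 fold change of 0.23 ± 0.12 (SE, limma adjusted p = 0.751). Trim25 stood at 0.23 ± 0.14 (limma adjusted p = 0.775), and Herc6 was below the filter at 9.06 ± 6.66 against 9.43 ± 4.71 in intensity (SD, n = 4 each).

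**Figure D3:**
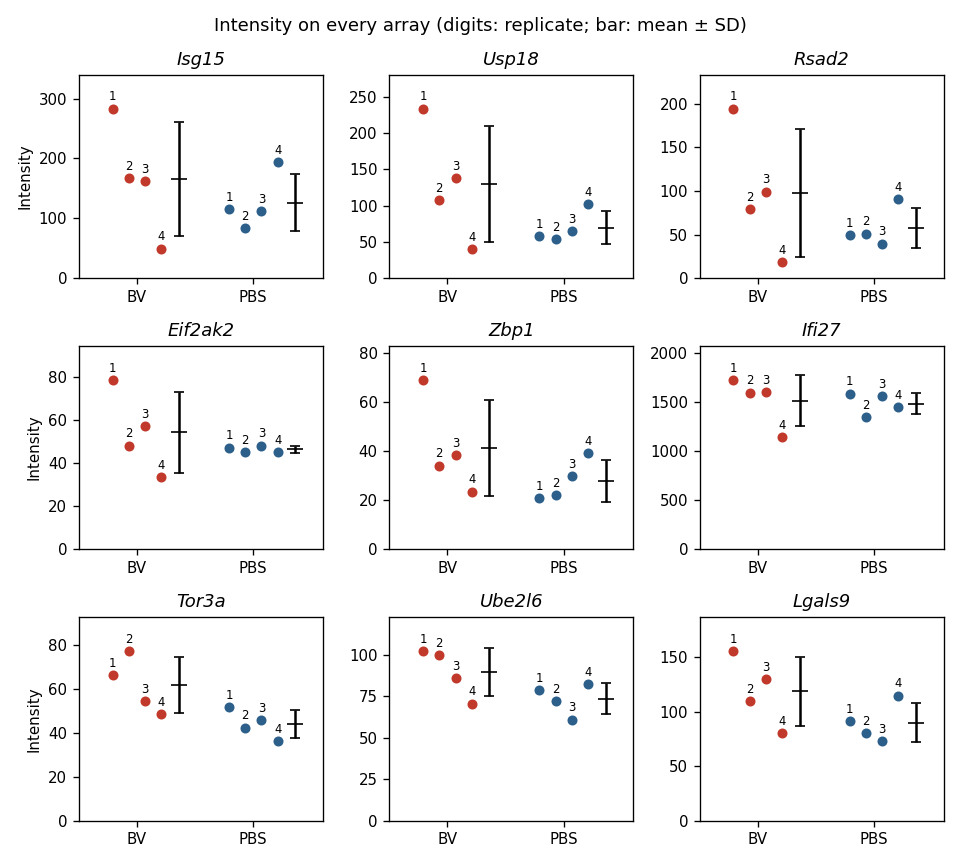
Intensity (vertical axes, linear from 0) of 9 members on each array of the inactivated baculovirus (BV, left) and PBS (right) groups, with the replicate number above each point and the mean ± SD beside it. For Isg15, Usp18, Rsad2, Eif2ak2 and Ifi27 baculovirus replicate 1 is the highest and baculovirus replicate 4 the lowest of the 8 arrays.

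Parp9, Parp12 and Parp14 encode ADP-ribosyltransferase family members, and Dtx3l the ubiquitin ligase that pairs with PARP9. All 4 tested probe sets had a higher mean, between 0.11 and 0.28 on the log2 scale, and 0 passed. Parp12, the largest of these changes, measured 73.3, 43.0, 57.0 and 18.0 after inactivated baculovirus, against 31.1, 24.5, 36.7 and 43.1 after PBS (log2 fold change 0.28 ± 0.24, SE, limma adjusted p = 0.822). Dtx3l, the smallest, was at 50.2 ± 15.1 against 44.6 ± 11.02 (SD, n = 4 each). The other probe set of Parp14 was below the filter, and both had the same direction, with log2 differences of 0.14 and 0.03.

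Of the 6 tested effector probe sets 5 had a higher and 1 a lower mean, with 0 passing. Rsad2 encodes viperin, a radical SAM enzyme that makes a chain-terminating nucleotide, and Cmpk2 supplies its substrate. Rsad2 measured 195, 78.8, 99.1 and 18.6 after inactivated baculovirus, against 49.6, 51.1, 39.4 and 90.5 after PBS. Its 10.4-fold range between baculovirus replicates 1 and 4 was the widest of the tested members. Rsad2 had a log2 fold change of 0.40 (95% interval -0.46 to 1.26, limma adjusted p = 0.857). It was 0.018 without baculovirus replicate 1 and 0.89 without baculovirus replicate 4.

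Cmpk2 had the lowest fold changes of the tested members. Its probe set 1393044_at measured 90.2, 65.6, 69.0 and 44.7 after inactivated baculovirus, against 61.7, 74.0, 60.2 and 86.5 after PBS, a log2 fold change of -0.07 ± 0.16 (SE, limma adjusted p = 0.945). The probe set 1383424_at measured 175, 130, 138 and 105 after inactivated baculovirus, against 139, 112, 156 and 131 after PBS, a log2 fold change of 0.01 ± 0.13 (SE, limma adjusted p = 0.994). The 2 Cmpk2 probe sets thus differed in sign, and each changed sign when single arrays were left out.

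Bst2 encodes tetherin, which holds budding virus at the cell surface, and Ifitm3 a membrane protein that blocks virus fusion. Bst2 was at 439 ± 168 against 366 ± 114 and Ifitm3 at 424 ± 129 against 347 ± 60.1 (SD, n = 4 each). Rtp4, which encodes an interferon-induced member of the receptor transporter protein family, was at 95.7 ± 49.3 against 74.5 ± 15.0. The limma adjusted p values were 0.893, 0.816 and 0.921 in that order. Isg20, an exonuclease, was below the filter with 35.2, 27.6, 26.5 and 18.0 after inactivated baculovirus, against 17.4, 15.2, 16.6 and 21.7 after PBS. Plscr1, a phospholipid scramblase, was below the filter at 12.5 ± 3.94 against 10.1 ± 2.80.

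Of the IFI group, Ifi27 and Ifi27l2b encode small mitochondrial or membrane proteins, Ifi35 and Nmi encode binding partners of each other, and Ifi44 and Ifi44l are paralogs. Their 6 tested probe sets all had higher means, between 0.02 and 0.38 on the log2 scale, with 0 passing. Ifi27 measured 1725, 1595, 1599 and 1140 after inactivated baculovirus, against 1583, 1345, 1557 and 1445 after PBS. Its log2 fold change of 0.02 (95% interval -0.22 to 0.25, limma adjusted p = 0.989) was among the smallest of the members, and it was -0.012 with each array centred on its median. Ifi27l2b measured 516, 350, 397 and 95.3 after inactivated baculovirus, against 264, 120, 212 and 345 after PBS. Its interval, from -0.48 to 1.24 around 0.38, was among the widest.

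Ifi44l was at 44.0 ± 26.4 against 29.7 ± 4.28 and Ifi44 at 35.0 ± 13.0 against 26.0 ± 11.8 (SD, n = 4 each). Ifi35 was at 90.3 ± 29.3 against 78.7 ± 13.3. Nmi had 2 probe sets with higher means, by 0.19 ± 0.11 (log2 fold change ± SE) on the tested one and by 0.20 on the one below the filter.

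The remaining members are proteins of nuclear bodies (Sp100, Sp110), secreted or cytosolic lectins and their partner (Lgals9, Lgals3bp), and Tor3a, an ATPase of the torsin family. Tor3a had the smallest p of the members, 0.0157 unadjusted. It measured 66.3, 77.2, 54.5 and 48.4 after inactivated baculovirus, against 51.8, 42.3, 45.9 and 36.1 after PBS. Only baculovirus replicate 4 lay within the PBS range, and the array order differed from that of most members, with baculovirus replicate 2 highest and PBS replicate 4 lowest. Tor3a had a log2 fold change of 0.36 (95% interval 0.08 to 0.64, limma adjusted p = 0.688).

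Lgals9 encodes galectin-9 and measured 156, 110, 130 and 80.4 after inactivated baculovirus, against 91.5, 80.2, 73.2 and 115 after PBS, with a log2 fold change of 0.33 ± 0.16 (SE, limma adjusted p = 0.742), and of 0.21 without baculovirus replicate 1. A further probe set that the annotation shares between Lgals9 and Lgals5 is not a member. Lgals3bp was at 338 ± 155 against 261 ± 42.7 (SD, n = 4 each, limma adjusted p = 0.885).

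Sp110 had higher means on all 3 of its probe sets. The probe set 1396268_at measured 80.0, 53.8, 52.5 and 34.1 after inactivated baculovirus, against 35.3, 35.5, 40.6 and 48.8 after PBS (log2 fold change of Sp110 0.31 ± 0.17, SE, limma adjusted p = 0.755), and the fold change was 0.15 without baculovirus replicate 1. The other tested one stood at 0.17 ± 0.16, and the one below the filter at 17.4 ± 11.6 against 7.38 ± 5.72 in intensity. Sp100, below the filter, ran the other way. It measured 24.8, 18.8, 20.4 and 25.3 after inactivated baculovirus, against 19.5, 30.7, 30.5 and 39.99 after PBS, with PBS replicate 4 the highest array.

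**Figure D4:**
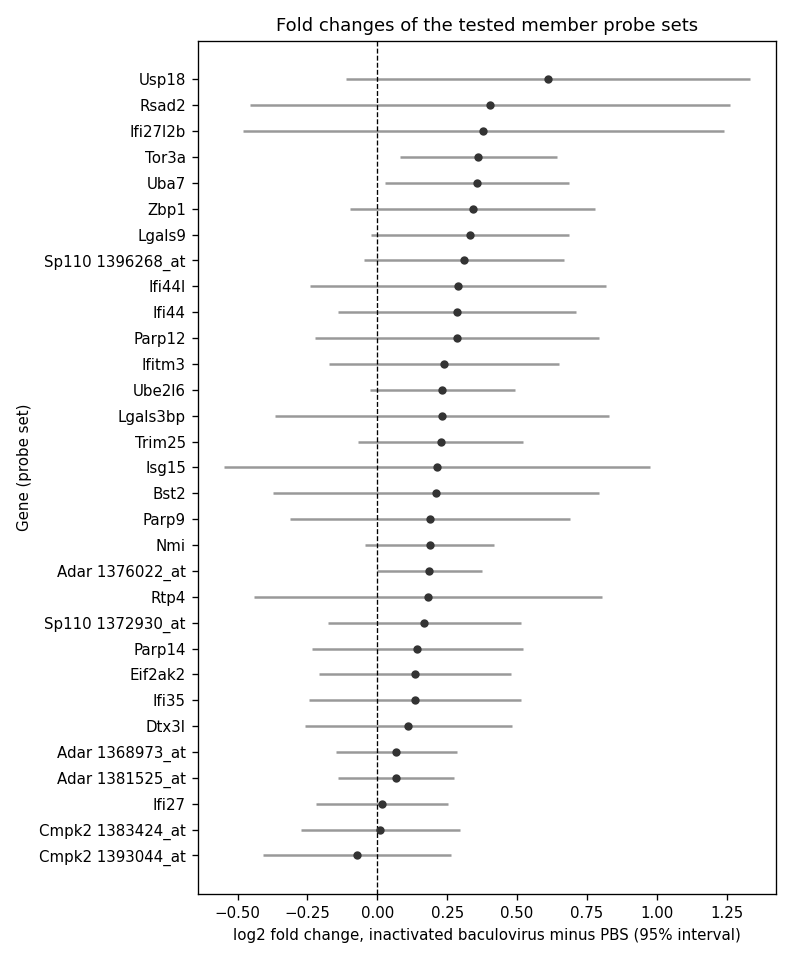
Log2 fold change (horizontal axis, inactivated baculovirus minus PBS, 4 arrays each) with its 95% interval for each of the 31 tested member probe sets (vertical axis). Of the points 30 lie above 0, and the intervals of Tor3a and Uba7 alone lie wholly above it.

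Split by promoter letters, the 15 tested probe sets of genes with a GAAANNGAAA match had a median log2 fold change of 0.23, and the 8 of genes whose window holds none had 0.21. Between baculovirus replicates 1 and 4 the intensity differed by a median of 2.31 times in genes with a match, with a range from 1.23 to 10.4. In genes without one the median was 1.83, with a range from 1.37 to 3.44. No test was made of this difference, and the ranges overlapped.

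For the gene lists from here on, each gene was read only on its single-symbol probe set with the highest mean log2 level. Genes upstream of the members were looked at from a list of sensor adaptors, kinases, receptors and factors. Of its genes 14 had a single-symbol probe set and 13 were tested, 9 with a higher and 4 with a lower mean, 0 passing and 0 at an unadjusted p under 0.05, with a median log2 fold change of 0.06. Irf7, the factor that amplifies interferon production and is itself interferon-stimulated, measured 701, 386, 509 and 59.8 after inactivated baculovirus, against 223, 157, 165 and 449 after PBS. It shared the members' order of arrays, with baculovirus replicate 1 highest and replicate 4 lowest. Irf9 was at 125 ± 43.6 against 113 ± 14.5 and Stat2 at 107 ± 23.9 against 89.7 ± 12.6, while the kinases Jak1, at 536 ± 26.8 against 553 ± 18.5, and Tyk2, at 82.3 ± 6.43 against 84.3 ± 2.04, varied little (SD, n = 4 each). Tbk1, the kinase downstream of MAVS, was at 220 ± 17.7 against 249 ± 10.3, a log2 fold change of -0.17 ± 0.08 (SE, limma adjusted p = 0.737). All 4 baculovirus arrays were below every PBS array for Tbk1, as 2.31% of all probe sets tested were lower without overlap. The interferon beta gene Ifnb1 lay below the filter, at 2.72, 3.81, 3.56 and 5.21 after inactivated baculovirus, against 0.895, 2.07, 3.67 and 4.51 after PBS.

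The 3′ to 5′ differences of the control genes, which read RNA quality and labelling, and the markers of several cell types also varied over the arrays. On the log2 scale the 3′ beta-actin probe set exceeded the 5′ one by 0.364, 0.507, 0.402 and 0.722 on baculovirus replicates 1 to 4, and by 0.567, 0.624, 0.460 and 0.408 on PBS replicates 1 to 4. This actin difference was smallest on the array with the highest member level and largest on the array with the lowest. For Gapdh the same log2 difference was -0.106, -0.0384, -0.104 and -0.0498 on baculovirus replicates 1 to 4, and -0.036, -0.0477, -0.0817 and -0.0825 on PBS replicates 1 to 4. It too was smallest on baculovirus replicate 1, but it was largest on PBS replicate 1 and not on baculovirus replicate 4. With the actin difference as a covariate the members' median log2 fold change was 0.17, the mean was higher for 28 of 31 (53.8% of all probe sets tested), 6 were higher at an unadjusted p under 0.05 (2.73%) and 0 passed. The design text names a pair of labelling kits, and the sources used here do not say which array had which.

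All 5 tested genes of 7 monocyte and macrophage markers had a higher mean, with 0 passing, and their summed intensity was 1671, 1237, 1609 and 963 on baculovirus replicates 1 to 4 and 1166, 806, 1285 and 1639 on PBS replicates 1 to 4. The sum was thus high on baculovirus replicates 1 and 3 and PBS replicate 4, and low on baculovirus replicate 4 and PBS replicate 2. Lyz2 made up most of this sum on every array. Ccr2 and Cd163, which mark infiltrating monocytes and border macrophages, were below the filter. Of 9 microglia markers 7 had a higher and 2 a lower mean, with 1 (Cx3cr1, higher) at an unadjusted p under 0.05 in limma and 0 passing. At that p 2.51% of all probe sets tested were higher and 4.22% lower, which holds for the further marker lists too. The sums of the microglia markers ran from 1472 to 1941 after inactivated baculovirus and from 1418 to 2026 after PBS. Their centred log2 level was 0.22, 0.01, 0.07 and -0.19 on baculovirus replicates 1 to 4 and -0.13, -0.08, 0.19 and -0.04 on PBS replicates 1 to 4. As for the members, it was highest on baculovirus replicate 1 and lowest on baculovirus replicate 4, although the sum was highest on PBS replicate 3 and lowest on PBS replicate 2. Only 1 of 9 T and NK cell markers, Cd4, was above the filter, with sums from 131 to 191 after inactivated baculovirus and from 87.7 to 136 after PBS, and 0 of the B cell and neutrophil markers were. No marker on these lists was listed at exactly 0.

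Of 5 endothelium markers 4 had a higher and 1 a lower mean, with 1 at an unadjusted p under 0.05 and 0 passing. Their centred log2 level was 0.21, 0.12, 0.08 and -0.14 on baculovirus replicates 1 to 4 and -0.04, -0.06, -0.21 and -0.07 on PBS replicates 1 to 4, again highest on baculovirus replicate 1, while the lowest array was PBS replicate 3. Their sums ran from 735 to 803 after inactivated baculovirus and from 701 to 770 after PBS. Of 5 meninges and fibroblast markers 4 had a higher and 1 a lower mean, with 2 at an unadjusted p under 0.05 and 0 passing. Their level was 0.23, -0.01, 0.19 and -0.12 on baculovirus replicates 1 to 4 and -0.02, -0.13, -0.26 and -0.09 on PBS replicates 1 to 4, highest on baculovirus replicate 1. Their sums ran from 486 to 649 after inactivated baculovirus and from 410 to 582 after PBS. The highest sum, 649, was on baculovirus replicate 3, against 621 on replicate 1.

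Striatal projection neuron markers ran the other way within the baculovirus group. Their summed intensity was 3895, 4599, 4261 and 5236 on baculovirus replicates 1 to 4 and 4178, 4787, 4823 and 5452 on PBS replicates 1 to 4. The lowest of the 8 arrays was baculovirus replicate 1, and baculovirus replicate 4 was second to PBS replicate 4. Of these 7 genes 1 had a higher and 6 a lower mean, with a median log2 fold change of -0.11, 1 at an unadjusted p under 0.05 (Bcl11b) and 0 passing. The part of any of these marker lists in the members' values was not tested. In whole tissue a change in the number of cells and a change in RNA per cell cannot be told apart.

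**Figure D5:**
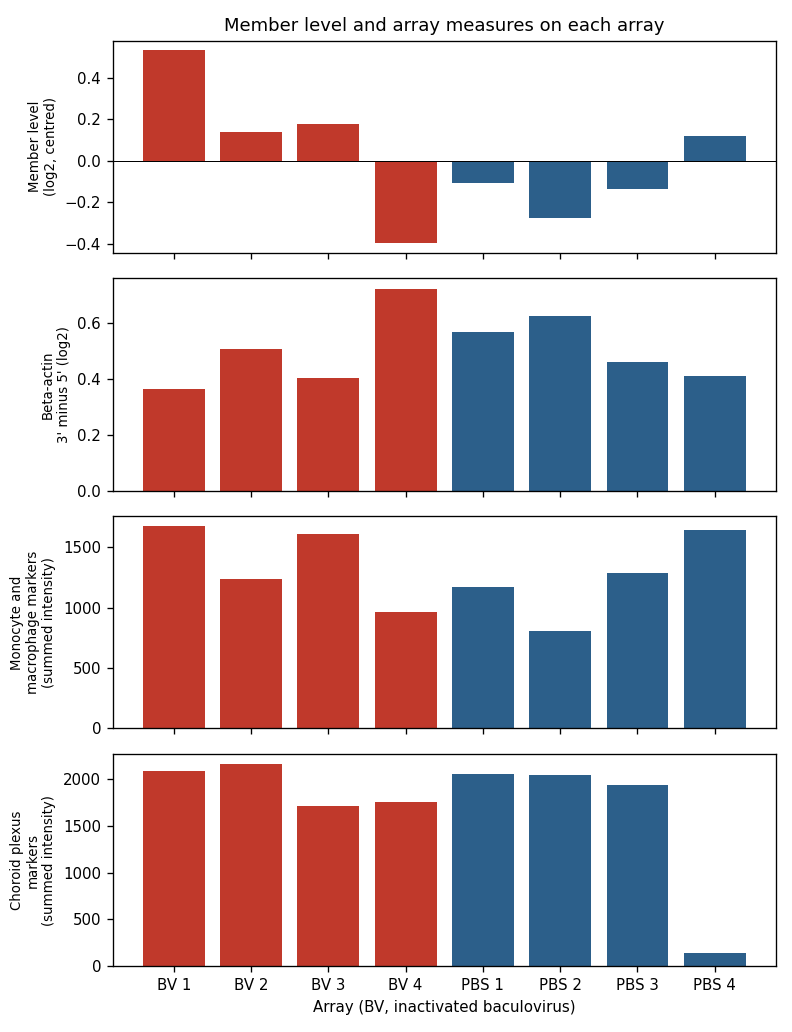
From top to bottom, for each array (baculovirus, BV, left, and PBS, right): median centred log2 level of the 31 tested members, the 3′ minus 5′ difference of beta-actin (log2), and summed intensities of monocyte and macrophage markers and of choroid plexus markers. The member level is highest on baculovirus replicate 1, at 0.53, where the actin difference is lowest, at 0.364.

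All 4 neuronal and all 7 striatal projection neuron genes were above the filter. Of the 4 neuronal genes 2 had a higher and 2 a lower mean, with 1 (Nefl, lower) at an unadjusted p under 0.05 in limma and 0 passing. Being above the filter does not check how closely the striatum was dissected. PBS replicate 4, the PBS array with the highest member level, stood apart in the choroid plexus sum, at 136 against 1928 to 2050 on the other PBS arrays and 1710 to 2155 on the baculovirus arrays. On the other arrays most of this sum was Ttr, at 1563 to 1968, against 47.7 on PBS replicate 4. Folr1 and Kl were also lowest on PBS replicate 4. Aqp1 was not, at 56.6 there against 41.7, 61.0 and 38.0 on PBS replicates 1 to 3. Across the probe sets tested, pairs of arrays had correlations of 0.97 to 0.986, and no 2 arrays held identical values.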

How the data were processed

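The members and gene lists used here were chosen with earlier results of these data known. The authors deposited linear intensities for 8 arrays, 4 per group, made with GCOS per the submitters' processing notes; the sources used here do not name the algorithm. GC-RMA and GeneSpring appear in the design text too, and per the labels the GeneSpring values were not supplied. Each array's mean, with 2% trimmed at either end, was 100.02. Columns were assigned by sample name.

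Of 31099 probe sets 57 controls were left out. The platform annotation (2016) gives 20826 probe sets 1 symbol, 436 several and 9780 no symbol, and RefSeq gene numbers changed 0 of the 45 member symbols. Intensities became log2(intensity + 16). Array medians spanned 0.111, under the limit of 0.2 set for leaving arrays as deposited. Probe sets above the 40th percentile of mean level were tested with limma 3.58.1 in R 4.3.3 (lmFit, eBayes with a trend, without a block; two-sided p, adjusted by Benjamini-Hochberg across the 18625). Precision is limited by the number of arrays. The script was tested on simulated data.

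Values on every array are given for the main sensors, Isg15, Usp18, Rsad2 and Ifi27, the 6 member probe sets with the smallest p, and the 3 with the lowest fold change, and further members with values on every array were added after these were seen. Alternatives were 20 other settings, from pseudocounts of 1 and 64 to each array left out.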

Additional observations from a re-analysis of the deposited data

How the results depend on the processing

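In all 20 alternatives, the t-test on the same log2 values included, 0 member probe sets passed. That t-test was not a repeat of the study's own procedure, since the GeneSpring values were not supplied. The replicate number as a block gave 0 as well (limma), with 30 of 31 members higher and a median log2 fold change of 0.21. Same-numbered arrays did not deviate together (correlations of -0.00511, 0.016, 0.00885 and -0.00302). Over all pairs of a baculovirus and a PBS array the correlations ran from -0.106 to 0.075, so no array had a clear partner. No pair known to share a rat was at hand for comparison, so this check cannot tell whether samples were paired. The members' median log2 fold change kept its sign in every setting, from 0.16 to 0.26 over settings with all 8 arrays and from 0.05 to 0.42 with 1 array left out. Members with a higher mean numbered 21 to 32 with 1 array left out (52.2% to 54.4% of all probe sets tested). They numbered 19 of 20 with a filter at the 60th percentile (50.8% of all), where fewer were tested, and 40 of 45 with no filter (56.1%). Members without overlap numbered 0 to 14 with 1 array left out, against 5.15% to 10.1% of all in either direction. The 14 came without baculovirus replicate 4 (6.82% of all), and without PBS replicate 4 there were 0 (10.1%). Of 273 fold changes of named probe sets under alternatives, 14 changed sign. Cmpk2 (1383424_at) was at -0.0172 with median centring, -0.0111 with the actin covariate, -0.101 without baculovirus replicate 1 and -0.0636 without PBS replicate 2. Ifi27 was at -0.0121 with median centring, -0.00349 with the actin covariate, -0.0510 without baculovirus replicate 1, -0.0138 without replicate 2, -0.0149 without replicate 3 and -0.0289 without PBS replicate 2. Cmpk2 (1393044_at) was at 0.0708 without baculovirus replicate 4 and 0.0123 without PBS replicate 4. With 1 array left out, the range was -0.101 to 0.117 for Cmpk2 (1383424_at), -0.198 to 0.0708 for Cmpk2 (1393044_at), -0.0510 to 0.146 for Ifi27, -0.0909 to 0.643 for Isg15 and -0.0219 to 0.290 for Eif2ak2, with Isg15 and Eif2ak2 below 0 only without baculovirus replicate 1. The cause of these changes was not tested.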
